A study of Mus musculus with 6 samples.

Results

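Interferon-induced effector genes encode the proteins with which a cell answers an interferon, among them antiviral proteins that bind RNA or sit in membranes, large GTPases, and enzymes that attach ISG15 or ADP-ribose to other proteins. A list of 46 such genes was taken by symbol from the Ifit, Isg, Mx, Ifitm, Gbp, Irg, Parp and Trim families and from single genes induced by interferon. Of these, 44 were found among the 17558 genes of the deposited table, and all 44 had enough counts to be tested. The remaining 2, Mx1 and Mx2, were not matched and are not analysed here. RNA was sequenced from C2C12 cells, an immortalized mouse myoblast line that fuses into myotubes when serum is withdrawn. All 6 libraries came from cells with a stably introduced short hairpin RNA, harvested after 48 h in differentiation medium with horse serum and an insulin, transferrin and selenium supplement. The hairpin was a scrambled, non-targeting one (shScr), one against the Pkm1 isoform (shPkm1) or one against the Pkm2 isoform (shPkm2) of the pyruvate kinase gene Pkm, with 2 libraries of each. The study asked what each isoform does in myoblast differentiation. The control cells thus also carry a hairpin, and cells without one were not compared here. Nothing in the labels says that the 2 libraries of a group came from separate cultures or clones, so the p-values below measure the spread between these libraries, which may be technical.

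Interferons are secreted proteins that bind receptors joined to JAK kinases, which phosphorylate STAT transcription factors. After type I interferon, a complex that includes STAT2 and IRF9 binds the interferon-stimulated response element in the promoters of these genes. Interferon gamma acts through the gamma-activated site, a sequence near the starts of many guanylate-binding protein and immunity-related GTPase genes. Double-stranded RNA and cytosolic DNA, which cells detect with RIG-I-like receptors and cGAS, are the usual triggers of interferon production in cells that are not immune cells.

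Promoter sequence was available for 35 of the 44 genes in the RefSeq table of the mouse build GRCm38.p6, which holds 250 bases before and 50 after a transcript start. Some genes have more than 1 start in it, 41 starts for the 35 genes, and a start can lie inside the annotated gene, so positions below count from the start in the table and not from the end of the gene. The core of the response element, searched on both strands as 2 copies of GAAA with any 2 bases between them, was found in 18 of the 35 (51.4%), against 3.99% of the 27025 genes with a promoter in that table. The gamma-activated site, searched as TTCNNNGAA, which reads the same on both strands, was found in 10 of the 35 (28.6%), against 9.55% of all genes. Both motifs stood in 6 promoters, those of Bst2, Gbp7, Ifitm3, Igtp, Irgm2 and Tgtp1. A match is a stretch of letters and does not show that a factor binds there, and the promoters of 9 genes were not in the table. Stretches upstream of the start of 8 genes are shown because their matches differ in number and arrangement. They are written 5′ to 3′ on the strand of the gene, and capitals mark the matches to either motif. A response element core on the opposite strand shows as its reverse complement, with TTTC in place of GAAA.
Isg15, chr4:156200819-156200938, minus strand: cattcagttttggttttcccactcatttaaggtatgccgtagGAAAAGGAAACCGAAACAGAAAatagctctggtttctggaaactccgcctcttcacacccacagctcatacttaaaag
Ifit1, chr19:34640769-34640888, plus strand: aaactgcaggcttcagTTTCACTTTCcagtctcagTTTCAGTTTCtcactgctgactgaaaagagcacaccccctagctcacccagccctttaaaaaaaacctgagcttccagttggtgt
Bst2, chr8:71537563-71537622, minus strand: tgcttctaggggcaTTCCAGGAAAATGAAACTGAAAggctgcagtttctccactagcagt
Rsad2, chr12:26456513-26456592, minus strand: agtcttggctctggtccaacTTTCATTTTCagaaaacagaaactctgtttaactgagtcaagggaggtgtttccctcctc
Igtp, chr11:58199496-58199555, plus strand: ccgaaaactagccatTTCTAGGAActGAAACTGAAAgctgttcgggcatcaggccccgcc
Irgm2, chr11:58214887-58214946, plus strand: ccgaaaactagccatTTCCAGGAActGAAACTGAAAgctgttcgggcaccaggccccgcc
Tgtp1, chr11:48992290-48992349, minus strand: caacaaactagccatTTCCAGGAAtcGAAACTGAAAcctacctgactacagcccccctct
Gbp7, chr3:142530216-142530305, plus strand: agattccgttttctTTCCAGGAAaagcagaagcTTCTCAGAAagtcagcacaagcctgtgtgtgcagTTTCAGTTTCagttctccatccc

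In Isg15, 3 overlapping cores begin at bases -78, -72 and -66, so that GAAA blocks follow each other every 6 bases. Ifit1 has 2 separate cores at -104 and -85, both on the opposite strand, and Rsad2 has 1 at -120. Bst2 has 2 overlapping cores at -130 and -124, and a gamma-activated site at -136 that runs into the first of them. The immunity-related GTPase genes Igtp, Irgm2 and Tgtp1 share 1 arrangement, a gamma-activated site that begins 11 bases before the response element core. The shown stretches of Igtp and Irgm2, neighbours on chromosome 11, are identical at 58 of 60 bases. That of Tgtp1, elsewhere on that chromosome, is identical to them at 39 and 41 of 60 bases. Gbp7 has 2 gamma-activated sites, 53 and 34 bases before its core. Ifit3 and Ifit3b, not shown, each have 2 cores at the same distance from each other, at -156 and -122 in Ifit3 and at -188 and -154 in Ifit3b.

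**Figure D1:**
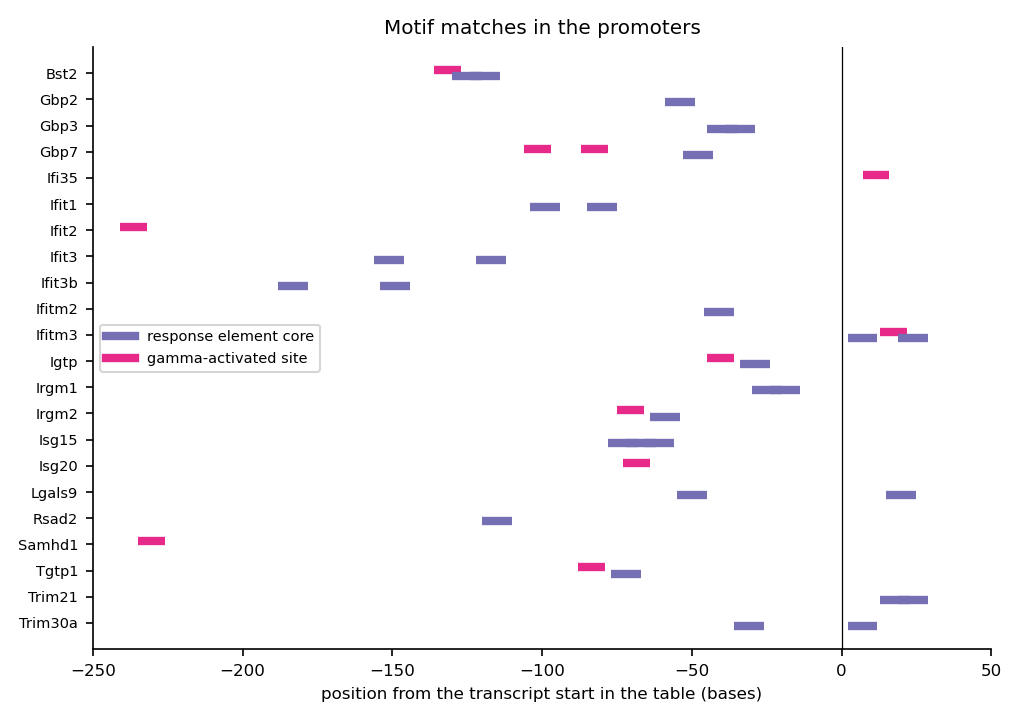
Positions of the 2 motifs in the promoters of the 22 genes with at least 1 match, in bases from the transcript start in the table (line at 0; the 2 matches of Trim30a belong to different starts); each bar is 1 match, purple for the response element core and pink for the gamma-activated site. Cores upstream of the start lie between bases -188 and -24, and in Igtp, Irgm2 and Tgtp1 a pink bar stands just before a purple one.

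The libraries held between 18216896 and 19796036 estimated counts. Pkm, counted over all its transcripts, was 1.55-fold lower in shPkm1 than in shScr (log2 fold change -0.63, SE 0.13, adjusted p = 0.0011, edgeR's quasi-likelihood test with Benjamini-Hochberg adjustment). In the libraries labelled shPkm2 it was not lower, at 0.20 on the log2 scale (SE 0.13, adjusted p = 0.198), and this gene total does not separate the isoforms. The group names below are therefore those of the labels and not a statement that a target fell. The 10 myotube markers examined fell in both Pkm hairpin groups: their summed level was 43050 and 32128 TPM in the shScr libraries, 14145 and 15311 TPM in shPkm1 and 320.3 and 331.5 TPM in shPkm2. The 5 myoblast markers summed to between 2556 and 3045 TPM in shScr and shPkm1 and to 1090 and 1000 TPM in shPkm2. These sums hide unlike markers. At an adjusted p under 0.05 in edgeR, 3 were lower and 0 higher in shPkm1, and 4 lower and 1 higher in shPkm2. Of all tested genes, 31.4% were lower in shPkm1 and 34.2% in shPkm2. TPM is a level of RNA scaled to transcript length and library size.

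As a group the effector genes were high in shScr and low in both Pkm hairpin groups. The 44 genes together stood at 8967 and 10874 TPM in shScr, at 3024 and 2804 TPM in shPkm1 and at 3908 and 4122 TPM in shPkm2. The mean sum was 3.40-fold lower in shPkm1 and 2.47-fold lower in shPkm2 than in shScr. Ifitm2 and Ifitm3, singled out after their values were seen, hold much of what is left in the Pkm hairpin groups. Without these 2 genes the sum was 5868 and 6971 TPM in shScr, 1060 and 1018 TPM in shPkm1, and 895.0 and 932.1 TPM in shPkm2, which is 6.18-fold and 7.03-fold lower than the shScr mean. The median of the genes' mean levels was 47.1 TPM in shScr, 8.78 TPM in shPkm1 and 10.1 TPM in shPkm2. In shScr 18 genes exceeded 100 TPM and 4 were under 10 TPM; in shPkm1 the numbers were 5 and 23, and in shPkm2 5 and 22. In bulk RNA, fewer cells that express a gene and less RNA per cell cannot be told apart.

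Against shScr, 41 of the 44 genes were lower in shPkm1, 1 was higher and 2 passed in neither direction at an adjusted p under 0.05 (edgeR, adjusted over all 12643 tested genes). Of all tested genes, 31.4% were lower and 31.8% higher in that comparison, 63.1% in all. In shPkm2, 42 were lower, 1 was higher and 1 did not pass, where 34.2% of all tested genes were lower and 33.9% higher, 68% in all. The same 41 genes were lower in both comparisons, as were 23.1% of all tested genes; the comparisons share their shScr libraries. The median log2 fold change of the 44 was -2.92 in shPkm1 and -2.88 in shPkm2, which is 7.56-fold and 7.34-fold lower. Over all tested genes the median was -0.00 and 0.01, which the scaling for library composition draws towards 0. At least 2-fold lower were 39 genes in each comparison (9.41% of all genes in shPkm1 and 13.7% in shPkm2), and at least 8-fold lower were 21 in each (1.31% and 3.91%). The TPM of both shPkm1 libraries lay below both shScr libraries for 41 genes, as for 20.3% of all tested genes, and those of both shPkm2 libraries did for 40, as for 22.5%. They lay above both shScr libraries for 2 genes in each comparison, as for 61% and 61.5% of all tested genes. Without the scaling for library composition (TMM, the trimmed mean of M values), the share of lower genes among all calls dropped from 49.7% to 34.2% in shPkm1 and from 50.2% to 30.7% in shPkm2, while 41 effector genes were still lower in each. That setting moved the median of all genes by 0.19 and 0.33 on the log2 scale. With limma on TPM, which also lacks this scaling, the median of all genes was 0.31 and 0.36 on log2(TPM + 1). On log2(TPM + 0.1) it was 0.38 and 0.45. Values of single genes in these settings carry that shared offset.

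**Figure D2:**
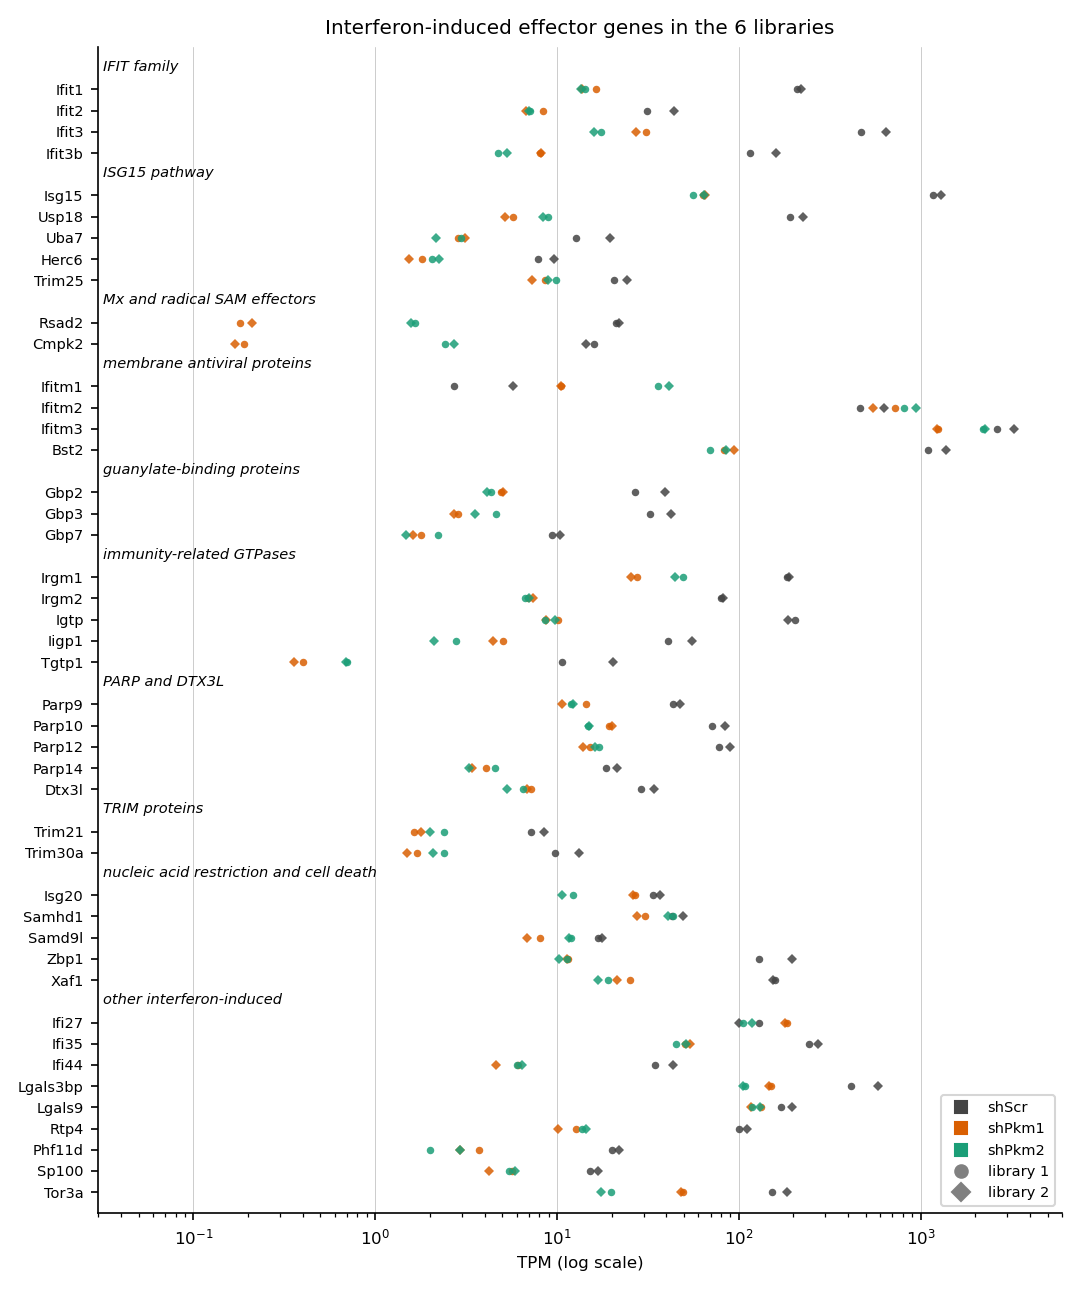
Level of each of the 44 genes in TPM (log axis) in the 6 libraries, grouped by role; colour gives the hairpin and shape the library. The shScr points lie to the right of the others in most rows, Rsad2 and Cmpk2 are lowest in shPkm1, and Ifitm1 runs the other way, from 2.70 TPM in shScr to 41.3 TPM in shPkm2.

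**Figure D3:**
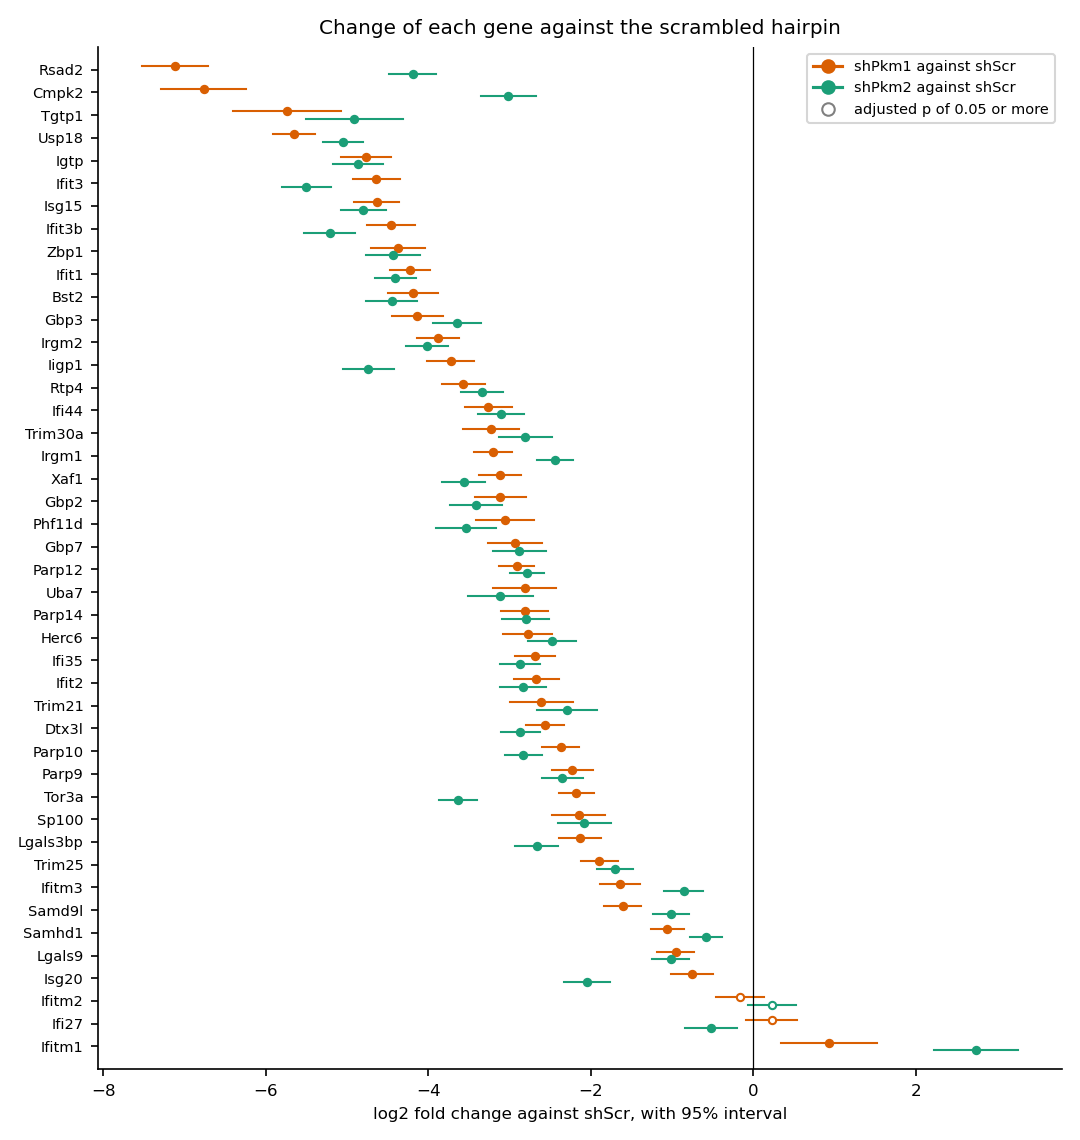
Log2 fold change of each gene against shScr with its 95% interval from the edgeR fit, in shPkm1 (orange) and shPkm2 (green), ordered by the shPkm1 value; open circles did not pass an adjusted p of 0.05. The points run from -7.12 for Rsad2 in shPkm1 to 2.74 for Ifitm1 in shPkm2, with 41 filled orange and 42 filled green points left of 0.

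The IFIT proteins bind viral RNA ends and translation factors, and their genes form a cluster on chromosome 19 (chr19:34550550-34650009). All 4 fell in both comparisons, between -2.67 and -4.64 on the log2 scale in shPkm1 and between -2.83 and -5.50 in shPkm2. Ifit3, the most abundant, stood at 469 and 646 TPM in the shScr libraries, 31.0 and 27.4 TPM in shPkm1, and 17.5 and 16.0 TPM in shPkm2. The 3 groups did not overlap, with shPkm2 lowest. It was 24.9-fold lower in shPkm1 (SE 0.13 log2, adjusted p = 3.35e-11) and 45.2-fold lower in shPkm2 (SE 0.14, adjusted p = 4.88e-12). Ifit1, which binds RNA lacking the cap methylation of host mRNA, stood at 210 and 219 TPM in shScr, 16.5 and 13.8 TPM in shPkm1, and 14.2 and 13.5 TPM in shPkm2. Both Pkm hairpin groups were far below the control and overlapped each other, at 18.7-fold and 21.2-fold lower. Ifit3b stood at 115 and 160 TPM in shScr, 8.11 and 8.14 TPM in shPkm1, and 4.77 and 5.29 TPM in shPkm2. Its transcript is 97.8% identical to that of Ifit3 over 1700 aligned bases, so the split of reads between them is uncertain. Ifit2 fell least of the 4, 6.35-fold and 7.13-fold.

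ISG15 is a ubiquitin-like protein that UBA7 activates, that ligases such as HERC6 and TRIM25 help to attach to other proteins, and that USP18 removes; USP18 also dampens signalling at the type I receptor. Isg15 stood at 1164 and 1291 TPM in shScr, 63.7 and 65.3 TPM in shPkm1, and 56.1 and 64.3 TPM in shPkm2. It was 24.8-fold lower in shPkm1 (log2 -4.63, SE 0.13, adjusted p = 2.84e-11) and 27.9-fold lower in shPkm2 (log2 -4.80, SE 0.13, adjusted p = 6.15e-12). Usp18 stood at 192 and 227 TPM in shScr, 5.70 and 5.18 TPM in shPkm1, and 8.89 and 8.43 TPM in shPkm2. The groups were again apart, this time with shPkm1 lowest, at 50.3-fold below shScr and shPkm2 at 33.0-fold. The activating enzyme Uba7 fell 7.02-fold and 8.63-fold, Herc6 6.84-fold and 5.55-fold, and Trim25 3.71-fold and 3.26-fold. All 5 genes of the pathway, for attaching and for removing ISG15, were thus lower in both groups, the modifier and its protease more than the enzymes that attach it.

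Rsad2 encodes viperin, a radical SAM enzyme that makes a chain-terminating nucleotide, and Cmpk2 encodes a mitochondrial nucleotide kinase. The genes lie 12664 bases apart on chromosome 12 (chr12:26442743-26479837). Rsad2 stood at 21.1 and 21.8 TPM in shScr, 0.18 and 0.21 TPM in shPkm1, and 1.65 and 1.57 TPM in shPkm2. Cmpk2 stood at 15.9 and 14.4 TPM in shScr, 0.19 and 0.17 TPM in shPkm1, and 2.41 and 2.70 TPM in shPkm2. Both genes were lowest in shPkm1 and intermediate in shPkm2, with no overlap between any of the groups. In shPkm1 Rsad2 was 139-fold lower (log2 -7.12, SE 0.19) and Cmpk2 109-fold lower (log2 -6.76, SE 0.24). These are the largest falls of the 44 in that comparison and rest on 7 and 9 estimated counts for Rsad2 and 6 and 6 for Cmpk2. In shPkm2 they were 18.3-fold and 8.08-fold lower.

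The IFITM proteins and BST2 (tetherin) sit in membranes and hinder the entry or release of enveloped viruses. Their genes did not move as 1 group. Ifitm3 had the highest level of the 44, with 2635 and 3274 TPM in shScr, 1241 and 1236 TPM in shPkm1, and 2206 and 2250 TPM in shPkm2. Both Pkm hairpin groups were below the control, shPkm1 further, at 3.10-fold lower (adjusted p = 8.36e-08) and 1.81-fold lower (adjusted p = 1.62e-05). Ifitm2 stood at 464 and 629 TPM in shScr, 723 and 549 TPM in shPkm1, and 807 and 939 TPM in shPkm2. The shScr and shPkm1 values overlapped while both shPkm2 values were highest, and the gene passed in neither comparison, with log2 fold changes of -0.16 (95% interval -0.46 to 0.14) and 0.24 (-0.06 to 0.53). This depended on the setting. It was higher in shPkm2 with limma on log2(TPM + 1) (0.69 against a median of 0.36 over all genes, adjusted p = 0.00214). On log2(TPM + 0.1) it was 0.69 against 0.45 (adjusted p = 0.00198), and with library totals 0.56 against 0.33 (adjusted p = 0.00475). Without the first shScr library it was lower in shPkm1 (-0.28, adjusted p = 0.0375), and without the second it was higher in shPkm2 (0.36, adjusted p = 0.00657).

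Ifitm1 was the gene that rose. It stood at 2.70 and 5.77 TPM in shScr, 10.5 and 10.5 TPM in shPkm1, and 36.1 and 41.3 TPM in shPkm2. The order was shScr, shPkm1, shPkm2, with no overlap, though the shScr libraries differed from each other 2.14-fold, more than for any other of the 44. It was 1.92-fold higher in shPkm1 (log2 0.94, SE 0.27, adjusted p = 0.0089) and 6.69-fold higher in shPkm2 (log2 2.74, SE 0.24, adjusted p = 3.67e-07). Without the first shScr library the shPkm1 value was 0.58 on the log2 scale and did not pass (adjusted p = 0.0581). Ifitm1 and Ifitm3 lie within 1 cluster of 55.9 kb on chromosome 7 (chr7:140954837-141010744), so a gene that rose and a gene that fell stand side by side there. Part of the Ifitm1 transcript, 186 aligned bases, is 92.5% identical to Ifitm3. Bst2, on chromosome 8, fell 18.2-fold and 21.8-fold.

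Guanylate-binding proteins (GBPs) and immunity-related GTPases (IRGs) coat and break the vacuoles of intracellular microbes and are classical targets of interferon gamma. All 3 GBP genes, within chr3:142530336-142638008, and all 5 IRG genes fell in both comparisons. Gbp3 stood at 32.5 and 42.3 TPM in shScr, 2.85 and 2.71 TPM in shPkm1, and 4.64 and 3.56 TPM in shPkm2. Gbp2 stood at 26.9 and 39.5 TPM in shScr, 4.93 and 5.06 TPM in shPkm1, and 4.32 and 4.15 TPM in shPkm2. For both genes all 4 Pkm hairpin libraries were far below the shScr libraries. Gbp3 fell 17.5-fold and 12.5-fold, Gbp2 8.64-fold and 10.7-fold, and Gbp7 7.61-fold and 7.35-fold.

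Among the IRGs, Igtp (Irgm3) stood at 203 and 186 TPM in shScr, 10.1 and 8.76 TPM in shPkm1, and 8.63 and 9.72 TPM in shPkm2. It fell 27.2-fold and 29.2-fold, and the Pkm hairpin groups overlapped. Irgm1, which with Igtp and Irgm2 regulates the effector IRGs on the cell's own membranes, stood at 184 and 188 TPM in shScr, 27.8 and 25.5 TPM in shPkm1, and 49.2 and 44.8 TPM in shPkm2. It fell less, 9.19-fold and 5.42-fold, and shPkm2 lay above shPkm1. The effector Iigp1 stood at 41.0 and 55.1 TPM in shScr, 5.04 and 4.44 TPM in shPkm1, and 2.80 and 2.11 TPM in shPkm2, a fall of 13.2-fold and 26.7-fold with shPkm2 lowest. Irgm2, the neighbour of Igtp, fell 14.7-fold and 16.2-fold, less than Igtp in both comparisons. Tgtp1 fell 53.3-fold and 30.0-fold, but its transcript is 99.8% identical to that of Tgtp2 over 2811 aligned bases, so its share of the reads is uncertain. Tgtp2, not on the list of 44, fell 19.7-fold and 13.5-fold.

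PARP9, PARP10, PARP12 and PARP14 attach or bind ADP-ribose, and DTX3L is the ubiquitin ligase that pairs with PARP9. Parp14, Dtx3l and Parp9 are neighbours on chromosome 16 (chr16:35831892-35972621). All 5 genes fell within a narrow range, from -2.23 to -2.91 on the log2 scale in shPkm1 and from -2.35 to -2.86 in shPkm2. Parp12 stood at 77.5 and 89.2 TPM in shScr, 15.1 and 13.9 TPM in shPkm1, and 16.9 and 16.2 TPM in shPkm2. Parp10 stood at 71.0 and 84.5 TPM in shScr, 19.3 and 20.1 TPM in shPkm1, and 14.87 and 15.04 TPM in shPkm2. Parp12 fell 7.51-fold and 6.87-fold, and Parp10 5.17-fold and 7.11-fold. Dtx3l stood at 29.0 and 34.1 TPM in shScr, 7.18 and 6.83 TPM in shPkm1, and 6.55 and 5.31 TPM in shPkm2, falling 5.89-fold and 7.28-fold. Of the TRIM ubiquitin ligases, Trim30a stood at 9.78 and 13.2 TPM in shScr, 1.70 and 1.5 TPM in shPkm1, and 2.40 and 2.07 TPM in shPkm2. Trim21, a cytosolic antibody receptor, stood at 7.24 and 8.52 TPM in shScr, 1.63 and 1.78 TPM in shPkm1, and 2.39 and 2.01 TPM in shPkm2. Trim30a fell 9.34-fold and 6.99-fold, and Trim21 6.09-fold and 4.89-fold.

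Genes that act on nucleic acids or on cell death fell by very different amounts. Zbp1, a sensor of Z-form nucleic acid that can start necroptosis, stood at 129 and 196 TPM in shScr, 11.6 and 11.3 TPM in shPkm1, and 11.4 and 10.3 TPM in shPkm2. Xaf1, a partner of the apoptosis inhibitor XIAP, stood at 158 and 154 TPM in shScr, 25.3 and 21.3 TPM in shPkm1, and 19.0 and 16.9 TPM in shPkm2. Zbp1 fell 20.7-fold and 21.6-fold, and Xaf1 8.68-fold and 11.8-fold. Samhd1, which breaks down deoxynucleotides, stood at 43.0 and 49.2 TPM in shScr, 30.6 and 27.6 TPM in shPkm1, and 43.4 and 41.1 TPM in shPkm2. Its shPkm2 and shScr levels overlapped in TPM. After composition scaling the counts were 2.08-fold lower in shPkm1 and fell by 0.58 on the log2 scale in shPkm2 (adjusted p = 8.88e-05). With limma on log2(TPM + 1) the shPkm2 value was -0.12 (adjusted p = 0.375), where the median of all genes was 0.36. Samd9l, a growth-restraining factor that limits translation, stood at 16.9 and 17.7 TPM in shScr, 8.09 and 6.85 TPM in shPkm1, and 11.9 and 11.6 TPM in shPkm2, a fall of 3.04-fold and 2.02-fold.

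Isg20, an RNA exonuclease, stood at 33.8 and 36.9 TPM in shScr, 26.7 and 26.1 TPM in shPkm1, and 12.3 and 10.7 TPM in shPkm2. It fell 1.68-fold in shPkm1 (adjusted p = 0.000126) and 4.14-fold in shPkm2 (adjusted p = 1.51e-08). Its transcripts, singled out after their values were seen, did not move alike. The main curated transcript stood at 20.1 and 20.1 TPM in shScr, 25.5 and 25.4 TPM in shPkm1, and 11.9 and 9.0 TPM in shPkm2. A second curated transcript stood at 9.85 and 8.38 TPM in shScr and at 0 and 0.06 TPM in shPkm1, and 0 and 1.56 TPM in shPkm2. In TPM the main transcript in shPkm1 was thus above both controls, while the gene total was below them. Of all transcripts of at least 1 TPM in shScr, 43.7% lay above both controls in shPkm1.

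Of the remaining 9 interferon-induced genes, 8 fell in both comparisons. Lgals3bp, a secreted glycoprotein that binds galectins, stood at 416 and 584 TPM in shScr, 150 and 148 TPM in shPkm1, and 109 and 106 TPM in shPkm2. Lgals9, which encodes galectin-9, stood at 172 and 196 TPM in shScr, 132 and 117 TPM in shPkm1, and 118 and 131 TPM in shPkm2. Lgals3bp fell 4.36-fold and 6.34-fold, whereas Lgals9 fell 1.94-fold and 2.02-fold. Tor3a, a torsin-family ATPase, stood at 153 and 184 TPM in shScr, 49.2 and 48.1 TPM in shPkm1, and 19.8 and 17.5 TPM in shPkm2, a fall of 4.53-fold and 12.4-fold. The receptor-transporter gene Rtp4 fell 11.8-fold and 10.1-fold, Ifi44 9.57-fold and 8.58-fold, and Phf11d 8.28-fold and 11.6-fold. Ifi35 fell 6.42-fold and 7.32-fold, and the nuclear body gene Sp100 4.44-fold and 4.23-fold.

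Ifi27, a small hydrophobic protein of mitochondria and the nuclear envelope, was the ninth. It stood at 128.6 and 100.5 TPM in shScr, 184 and 179 TPM in shPkm1, and 106 and 119 TPM in shPkm2. Both shPkm1 values were above the others, and shPkm2 overlapped shScr. After composition scaling the counts gave a log2 fold change of 0.23 in shPkm1 (95% interval -0.09 to 0.54, adjusted p = 0.191) and -0.52 in shPkm2 (adjusted p = 0.00721). The shPkm2 call was lost with limma on log2(TPM + 1) (-0.02, adjusted p = 0.886) and on log2(TPM + 0.1) (-0.02, adjusted p = 0.887). It was also lost with library totals (-0.19, adjusted p = 0.24), without the first shScr library (-0.23, adjusted p = 0.0651) and without the first shPkm2 library (-0.39, adjusted p = 0.0859). The shPkm1 value passed with limma (0.67 on both TPM scales, adjusted p = 0.000536 and 0.000525), with library totals (0.43, adjusted p = 0.0142) and without the first shScr library (0.52, adjusted p = 6.63e-05). In shPkm1 the median of all genes was 0.31 and 0.38 with limma on the 2 TPM scales and 0.19 with library totals. In shPkm2 it was 0.36, 0.45 and 0.33. The Ifi27 transcripts, also singled out after their values were seen, split in 2 directions. The 4 curated transcripts lay above both controls in shPkm1, as did 43.7% of all transcripts of at least 1 TPM in shScr. The largest of the 4 stood at 79.7 and 61.0 TPM in shScr and 126 and 124 TPM in shPkm1. The 3 predicted ones lay below, the second of them at 13.5 and 11.9 TPM in shScr, 2.72 and 0.91 TPM in shPkm1, and 2.72 and 3.95 TPM in shPkm2.

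Counted by transcript, the 44 genes had 115 RefSeq transcripts, of which 79 averaged at least 1 TPM in shScr. Both shPkm1 libraries lay below both shScr libraries for 68 of the 79 and above them for 7, against 22.4% and 43.7% of the 19622 transcripts at that level. In shPkm2 the numbers were 69 below and 5 above, against 25.2% and 46.3%. The transcripts above the controls in either group belonged to Ifi27, Ifitm1, Ifitm2, Isg20 and Rtp4. The division of reads between transcripts of 1 gene is the authors' estimate and carries an error that is not given.

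Between the Pkm hairpin groups the 44 genes were called in both directions, at shares near those of all tested genes. In shPkm2 against shPkm1, 10 were lower, 10 higher and 24 passed in neither direction, where 27.3% of all tested genes were lower and 25.7% higher, 53% in all. In TPM the groups did not overlap for 11 lower and 17 higher genes, against 34.5% and 43.2% of all tested genes. The median log2 difference was -0.06. Of the 24 without a call, 23 had a 95% interval within 1 log2 unit either way; the exception was Tgtp1, at 0.83 (-0.23 to 1.89). Without composition scaling 9 were lower and 14 higher, and the share of lower genes among all calls dropped from 51.6% to 38.7%.

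At least 2-fold differences were found for 6 genes. Cmpk2 was 13.4-fold higher in shPkm2 (log2 3.75, SE 0.31, adjusted p = 3.51e-07) and Rsad2 7.61-fold higher (log2 2.93, SE 0.27, adjusted p = 8.88e-07). Ifitm1 was 3.49-fold higher (adjusted p = 1.07e-05). Tor3a was 2.73-fold lower (log2 -1.45, SE 0.10, adjusted p = 7.91e-08), Isg20 2.46-fold lower (adjusted p = 2.89e-06) and Iigp1 2.02-fold lower (adjusted p = 0.000205). The other genes higher in shPkm2 were Ifitm3, Irgm1, Usp18, Samd9l, Gbp3, Samhd1 and Ifitm2, between 1.72-fold and 1.32-fold. The other lower ones were Ifit3, Ifit3b, Ifi27, Lgals3bp, Parp10, Xaf1 and Dtx3l, between 1.82-fold and 1.24-fold. Several of the smaller calls were lost under an alternative, mostly with a similar log2 difference. Dtx3l, at -0.31 with all libraries, was not called with DESeq2 (adjusted p = 0.0766), with limma on log2(TPM + 1) (-0.21, adjusted p = 0.266) or with library totals (-0.17, adjusted p = 0.254). It was also lost without either shPkm1 library (-0.32 and -0.30) or the second shPkm2 library (-0.20). Gbp3, at 0.49, was not called with DESeq2 (adjusted p = 0.0573), with limma on log2(TPM + 1) (0.42, adjusted p = 0.0566), without either shPkm1 library (0.47 and 0.50) or without the first shPkm2 library (0.31). Xaf1 was not called without the first shPkm1 library (-0.41) or the second shPkm2 library (-0.42), nor Ifitm2 without the second shPkm1 library (0.24) or the second shPkm2 library (0.22). Calls were also gained. Phf11d and Bst2 were lower with only the groups compared in the fit, without either shScr library, and without the second shPkm2 library (-0.84 and -0.47). Trim30a and Tgtp1 were higher without either shScr library, and Trim30a, Herc6, Trim25 and Rtp4 with library totals; Phf11d was also lower when genes with few counts were kept in the fit.

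**Figure D4:**
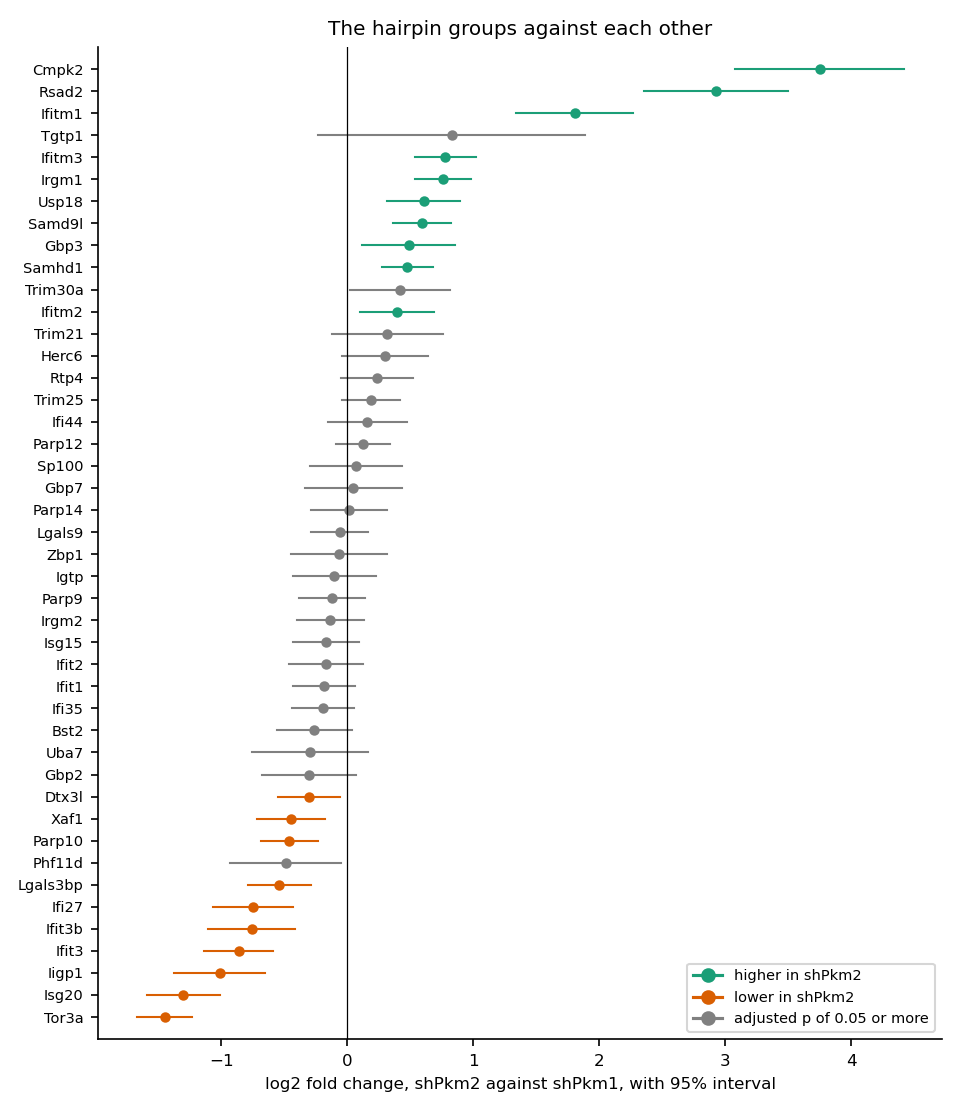
Log2 fold change of each of the 44 genes in shPkm2 against shPkm1 with its 95% interval from the edgeR fit; green is higher and orange lower in shPkm2, grey did not pass an adjusted p of 0.05. Cmpk2, Rsad2 and Ifitm1 stand apart on the right and Tor3a and Isg20 on the left, with 24 grey genes between.

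Within families the direction of this difference was mixed. Ifit3 and Ifit3b were lower in shPkm2, while Ifit1 and Ifit2 had values of -0.18 and -0.17 and did not pass. Among IRGs Irgm1 was higher by 0.76 (adjusted p = 3.79e-05) and Iigp1 fell by 1.01 on the log2 scale, while Igtp and Irgm2 had values of -0.10 and -0.13. Isg15 had a value of -0.17 (-0.43 to 0.10), whereas its protease Usp18 was 1.52-fold higher (adjusted p = 0.00186).

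The depth of the fall and the promoter motifs are set side by side here as a description. The 18 genes with a response element core had a median log2 fold change of -4.01 in shPkm1 and -3.83 in shPkm2, and 17 of them were lower in each. The 17 genes with a promoter in the table but no core had medians of -2.67 and -2.78, and 16 were lower in each. The 9 genes without an entry had medians of -2.81 and -3.33. The ranges overlapped widely: Ifitm2, with a core at -46 from a start that lies inside the annotated gene, did not pass, and Cmpk2, with neither motif in this window, was 109-fold lower in shPkm1. The 6 genes with both motifs were lower in both comparisons, with medians of -4.03 and -4.23.

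Genes upstream of the effectors come next, beginning with the ligands. Of 20 interferon ligand genes 5 were in the table, and none had enough counts to be tested. Ifnb1 had 2 and 1 estimated counts in shScr and 0 in the other 4 libraries. Ifna4 had 1 count in the first shScr library, Ifnab 1 in the first shPkm2 library and Ifne 0 in all. Ifng had 0 and 15 counts in shScr, 3 and 0 in shPkm1, and 1 and 1 in shPkm2. With 3 counts taken as the floor, Ifng in the second shScr library was the only value above it.

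Of 21 tested receptor and signalling genes, 11 were lower and 7 higher in shPkm1, and 10 lower and 7 higher in shPkm2, with medians of -0.40 and -0.23. For these counts and those of the lists below, the shares of all tested genes were 31.4% lower and 31.8% higher in shPkm1, and 34.2% and 33.9% in shPkm2. The share of signalling genes called higher was thus near that of all genes. Ifnar2, a type I receptor chain, had the highest mean level together with Irf7, the factor that drives interferon-alpha genes. Ifnar2 stood at 60.2 and 68.1 TPM in shScr, 116 and 124 TPM in shPkm1, and 70.0 and 71.8 TPM in shPkm2; it was higher in shPkm1 (log2 0.52, adjusted p = 0.000529) and did not pass in shPkm2 (-0.20, adjusted p = 0.0944). Irf7 stood at 179 and 208 TPM in shScr, 12.2 and 13.9 TPM in shPkm1, and 15.5 and 12.7 TPM in shPkm2, a fall of 19.4-fold and 18.8-fold. The type I receptor chain Ifnar1 (0.28 and 0.67), the gamma receptor chain Ifngr1 (1.02 and 0.55), the kinases Jak1 (0.57 and 0.67) and Jak2 (1.66 and 1.41) and the STAT inhibitor Pias1 (0.42 and 0.31) were higher in both groups on the log2 scale. Socs3 (0.32) was higher in shPkm1, and Il10rb (0.48) and Ptpn2 (0.42) in shPkm2. Stat2 and Irf9, named after their values were seen, were also lower: Stat2 fell 5.78-fold and 5.49-fold, and Irf9 4.72-fold and 3.86-fold. Both are themselves induced by interferon.

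Of 18 tested sensors of RNA and DNA, 15 were lower in shPkm1 with none higher, and 14 lower and 3 higher in shPkm2, with medians of -2.39 and -2.18. Oasl2 stood at 111 and 186 TPM in shScr, 21.8 and 18.9 TPM in shPkm1, and 21.6 and 21.3 TPM in shPkm2, and fell 9.64-fold and 9.11-fold. Trex1, the exonuclease that removes cytosolic DNA, fell 4.10-fold and 4.22-fold. Among those higher in shPkm2 were Cgas (0.84) and Sting1 (0.33 on the log2 scale), the DNA sensor and its adaptor. Of the 14 genes of MHC class I presentation, 13 were lower in shPkm1 and 14 in shPkm2, with medians of -1.16 and -1.79. B2m, the light chain, fell 1.92-fold and 2.40-fold, and the proteasome activator Psme2 2.53-fold and 3.02-fold.

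Of 23 tested relatives of the effector families, 18 were lower and 2 higher in shPkm1, and 19 lower with none higher in shPkm2, with medians of -2.55 and -3.26. Ifi27l2a, a relative of Ifi27, stood at 420 and 480 TPM in shScr, 44.2 and 58.1 TPM in shPkm1, and 57.1 and 70.0 TPM in shPkm2, and fell 11.4-fold and 9.59-fold. Zc3hav1, the zinc-finger antiviral protein, fell 1.19-fold and 1.24-fold. The 2 that were higher in shPkm1 were Gbp8 (3.46) and Ifitm10 (1.70 on the log2 scale). Gbp8 was barely detected, with 4 and 1 estimated counts in shScr, 27 and 39 in shPkm1, and 0 and 1 in shPkm2.

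Parp and Trim genes on none of the lists here were called in both directions. Of 45 tested, 15 were lower and 14 higher in shPkm1, and 18 lower and 18 higher in shPkm2. Of all genes, 31.4% were lower and 31.8% higher in shPkm1, and 34.2% and 33.9% in shPkm2. At least 2-fold lower were 9 of the 45 in shPkm1 and 11 in shPkm2, beside 9.41% and 13.7% of all genes. Trim28, a co-repressor, had a log2 fold change of -0.06 in shPkm1 and rose by 0.54 in shPkm2. Trim35 was lower in both, by 1.30-fold and 1.80-fold. Higher in both groups were Trim68, Parp2, Trim27, Parp16, Trim66, Trim65, Trim46, Trim3, Trim59, Trim2, Trim44, Trim23 and Trim33, from 0.28 to 3.08 on the log2 scale; the latter is Trim66, at most 0.19 TPM in any library. Trim39 was higher in shPkm1, and Trim24, Trim28, Parp8, Trim37 and Trim16 in shPkm2.

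NF-kappaB is a factor activated by many of the same triggers. Of 12 tested targets, 2 were lower and 6 higher in shPkm1, beside 31.4% and 31.8% of all genes. In shPkm2 5 were lower and 4 higher, near the 34.2% and 33.9% of all genes, with medians of 0.15 and 0.04. The chemokine gene Cxcl1 was higher in both, by 0.63 and 1.73, as were Nfkbia (0.32 and 0.54), Nfkb1 (0.26 and 0.78) and Vcam1 (1.14 and 1.67). Il6 (1.69) and Bcl3 (0.53) were higher in shPkm1. Tnip1 fell 2.22-fold and 2.15-fold.

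**Figure D5:**
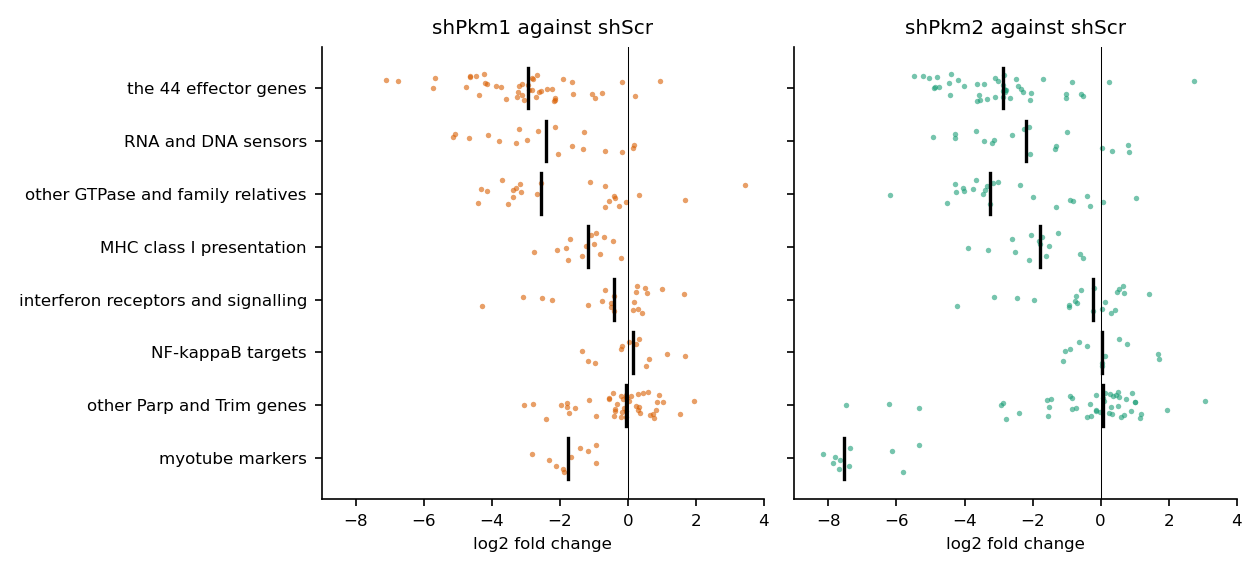
Log2 fold change against shScr of each tested gene (points) in the effector list, the related lists and the myotube markers, for shPkm1 (left) and shPkm2 (right); the vertical bar is the list's median. The effectors, sensors and family relatives lie mostly left of 0 with medians from -2.18 to -3.26, the signalling genes, NF-kappaB targets and other Parp and Trim genes lie on both sides, and the myotube markers have medians of -1.76 and -7.53.

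The myotube markers moved with the effector genes, but by unequal amounts in the groups. All 10 were lower in both comparisons, by a median of 3.39-fold in shPkm1 and 185-fold in shPkm2, where the effector genes fell by medians of 7.56-fold and 7.34-fold. Between the Pkm hairpin groups the markers had a median log2 difference of -5.36, against -0.06 for the 44 genes. Fibroblast markers summed to 1037 and 1272 TPM in shScr, 5624 and 5454 TPM in shPkm1 and 885.0 and 760.0 TPM in shPkm2. Of the 4 tested, 4 were higher in shPkm1, while 3 were lower and 1 higher in shPkm2. The part of cell state in the fall of the effector genes was not tested.

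Markers of leukocytes, which express many of these genes, were low. Of 10 listed, 8 were in the table; Tyrobp had 0 counts in all libraries and Fcer1g at most 1. The 8 summed to 3.96 and 6.99 TPM in shScr and between 15.6 and 19.2 TPM in the 4 other libraries, most of it Cd14. Of the 5 tested, 1 was lower and 4 higher in shPkm1, and 2 were lower and 2 higher in shPkm2. Endothelial markers summed to at most 0.41 TPM in any library. The second shScr library had the higher level for 40 of the 44 effector genes. The share of all genes higher in it was not counted, so whether this is particular to the effector genes was not tested. The median ratio of the higher to the lower of the 2 libraries was 1.18. In the second library the myotube markers summed to less than in the first.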

How the data were processed

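The deposited table has 1 row for each of 57920 RefSeq transcripts. Per the file headers it holds estimated counts, FPKM and TPM of each library; 15 value columns (6 FPKM and 9 group means) were not used. The submitters' processing notes name HISAT, StringTie, Bowtie, RSEM, DESeq2 and build mm10 without saying which step each served; strandedness is not given in the sources used here, so overlapping antisense genes cannot be told apart. The authors' TPM values take account of transcript length and library size.

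Deposited estimated counts and TPM were added up per NCBI gene number (17558 genes, of which 113 had no symbol), and summed counts were rounded. Genes passing filterByExpr (minimum count 10, minimum total 15; 12643 genes) were tested with edgeR 4.0.16 in R 4.3.3: TMM scaling, 1 coefficient per group over all 6 libraries, two-sided quasi-likelihood F-tests, and Benjamini-Hochberg adjustment over all tested genes with a threshold of 0.05. With 2 libraries against 2 the smallest exact permutation p is 0.333, and no single-gene permutation test was used. At this depth a count of 3 was taken as the floor, which covers counting error only. Fold changes of genes with few counts depend on edgeR's prior count.

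Per-library values are given for the 2 most abundant genes of each role group, genes not lower in both comparisons and genes called between the Pkm hairpin groups; of related lists, for the 2 most abundant and those called higher, with fold changes only for some. Some genes of the related lists are not reported by name here. The gene list, the related lists and the rule were chosen with earlier results of these data known. Motifs were searched in RefSeq promoters of GRCm38.p6, and near-identical transcripts were aligned with Biopython 1.88. Alternatives were other scalings and filters, DESeq2 1.42.0, limma 3.58.1 on log2(TPM + 1) and log2(TPM + 0.1), fits of 2 groups, the replicate block, and leaving out each library.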

Additional observations from a re-analysis of the deposited data

How the results depend on the processing

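The number of effector genes called lower was 41 in shPkm1 in every alternative with all libraries and between 40 and 42 in shPkm2; leaving out 1 library gave 41 to 42 in each. The number called higher was 1 in the main analysis of each comparison. In settings without composition scaling, where the median of all genes was 0.19 to 0.45, it was 2 in shPkm1 and in shPkm2 alike. These were library totals only, limma on log2(TPM + 1) and limma on log2(TPM + 0.1). Leaving out 1 library gave 1 in shPkm1 and 1 to 2 in shPkm2, the 2 being reached without the second shScr library. In shPkm2 against shPkm1, 8 to 12 were lower and 8 to 14 higher. No gene of the 44 reversed its direction while called. With the replicate block 41 were lower and 1 higher in shPkm1, 42 and 1 in shPkm2, and 10 and 10 between the Pkm hairpin groups, so the block changed no count. Libraries with the same number did not deviate together (correlations of -0.03, 0.04 and 0.05 over genes), so the numbers are not taken to pair them. A lone library left in a group is assumed to vary like the others. With 2 libraries per group, values for genes under about 10 counts are imprecise.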

Other observations

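RefSeq lists Mx1 and Mx2, the 2 genes not analysed here, on chromosome 16 of GRCm38.p6 as transcribed pseudogenes. Among the relatives of the effector families, Gvin1, a very large GTPase singled out after its values were seen, had 16 estimated counts in the second shScr library, 23 in the first shPkm1 library and 0 in the 4 others. Its libraries thus differed within a group as much as between groups.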
